A study of Mus musculus with 12 samples.

Results

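The genes described here are 36 mouse genes whose products add acetyl groups to proteins, remove them or bind them: 15 acetyltransferase and coactivator genes, 18 deacetylase genes and 3 genes for bromodomain proteins. They were chosen by gene name, with earlier results of these data known, and all 36 were found among the 17922 genes of the deposited table. RNA had been sequenced from chondrocytes, the cells of cartilage, which were freed from mouse ribs with collagenase and cultured. The LDH knockout mice had both Ldha alleles floxed, 1 Ldhb allele lost and a Cre recombinase under the type II collagen promoter (Col2-Cre), which is active in chondrocytes, and were taken at postnatal day 5 (P5). The Acly knockout mice had both Acly alleles floxed with the same Cre and were taken before birth, at E18.5. Each knockout was compared with its own littermate controls, whose genotype the labels give only as LDH or Acly. Each of the 4 groups had 3 samples, and all were of a mixed strain that is mostly C57BL/6. Nothing in the labels says whether a sample was 1 animal or a pool, so p-values measure the spread between these samples.

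Acetyltransferases take the acetyl group from acetyl-CoA. Acly, the ATP citrate lyase, makes acetyl-CoA from citrate in the cytosol and so supplies the substrate of these enzymes. Lactate dehydrogenase regenerates NAD when it turns pyruvate into lactate, and the sirtuins consume NAD when they remove an acetyl group, whereas the other deacetylases use zinc. In growing cartilage, Hdac4 is known for holding back the hypertrophic maturation of chondrocytes. The question put to the data was whether RNA for this machinery differed when either metabolic gene was deleted.

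The libraries held 26362400 to 28154100 expected counts each. Ldha, a deleted gene, stood at 86.7 ± 6.64 CPM (counts scaled to library size, SD, n = 3) in LDH knockouts and 845 ± 51.4 in their controls, and Acly stood at 74.2 ± 18.9 in Acly knockouts and 197 ± 4.81 in theirs (edgeR adjusted p 3.26e-07 and 0.0313, the latter lost under some alternatives). Ldhb RNA was not lower in the LDH knockouts, which had lost 1 allele. It stood at 15.1 ± 1.14 CPM there and 11.7 ± 0.529 in controls (log2 fold change 0.37, edgeR adjusted p 0.115). All 10 chondrocyte markers were above 0 in every group, and their summed level was 10576 to 12272 CPM in LDH controls, 19244 to 28986 in LDH knockouts, 8083 to 8787 in Acly controls and 13547 to 15991 in Acly knockouts. Most of the sum was Col2a1 (mean 9638 CPM in LDH controls), whereas Matn1 averaged only 0.09 CPM in LDH controls and 0.19 in LDH knockouts. Acly knockout replicate 2 stood apart: on the first principal component of all genes it lay at -24.4, and the other Acly libraries lay between -51.3 and -42.7. RNA of 4 Y-linked genes summed to 97.6, 106 and 0.632 CPM over the LDH controls and to at most 0.0388 CPM in each LDH knockout. Little Y-linked RNA thus partly coincided with the LDH knockout. A fit with this sum as a covariate sets the LDH knockouts mainly against control replicate 3. The Acly controls had 0.355, 111 and 2.66 CPM by the same sum, and the Acly knockouts 0.0707, 72.8 and 78.8. These are bulk samples, in which fewer cells of a type and less RNA per cell cannot be told apart.

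All 36 genes were detected in every library. The deposited TPM values are scaled for transcript length and allow genes to be compared, and the following levels are means over all 12 samples. Brd2, a bromodomain protein of the BET family that binds acetylated histones, was the most abundant at 279 TPM and ranged from 266 to 301 across samples. Kat2a, the acetyltransferase of the SAGA and ATAC coactivator complexes, came next at 130 TPM. Below it lay Sirt2 at 94.98 TPM, Hdac1 at 88.9, Hdac3 at 84.8, Hdac2 at 83.1 and Naa10 at 72.9. The ranges of these last 5 genes across samples overlapped one another. After Brd2 and Kat2a the order differed between the sets: in LDH controls Hdac2 came next at 79.9 TPM, followed by Kat5 at 79.3, Hdac3 at 73.2, Sirt2 at 70.1 and Hdac1 at 64.9, with Naa10 at rank 10 (52.1 TPM). In Acly controls Hdac1 came next at 114 TPM, and Kat5 had rank 8 (64.0 TPM). At the other end, Kat2b, the paralog of Kat2a, had 2.43 TPM, and Hdac9, a class IIa deacetylase, had 0.532 TPM, which came from only 20 to 64 counts per library.

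**Figure D1:**
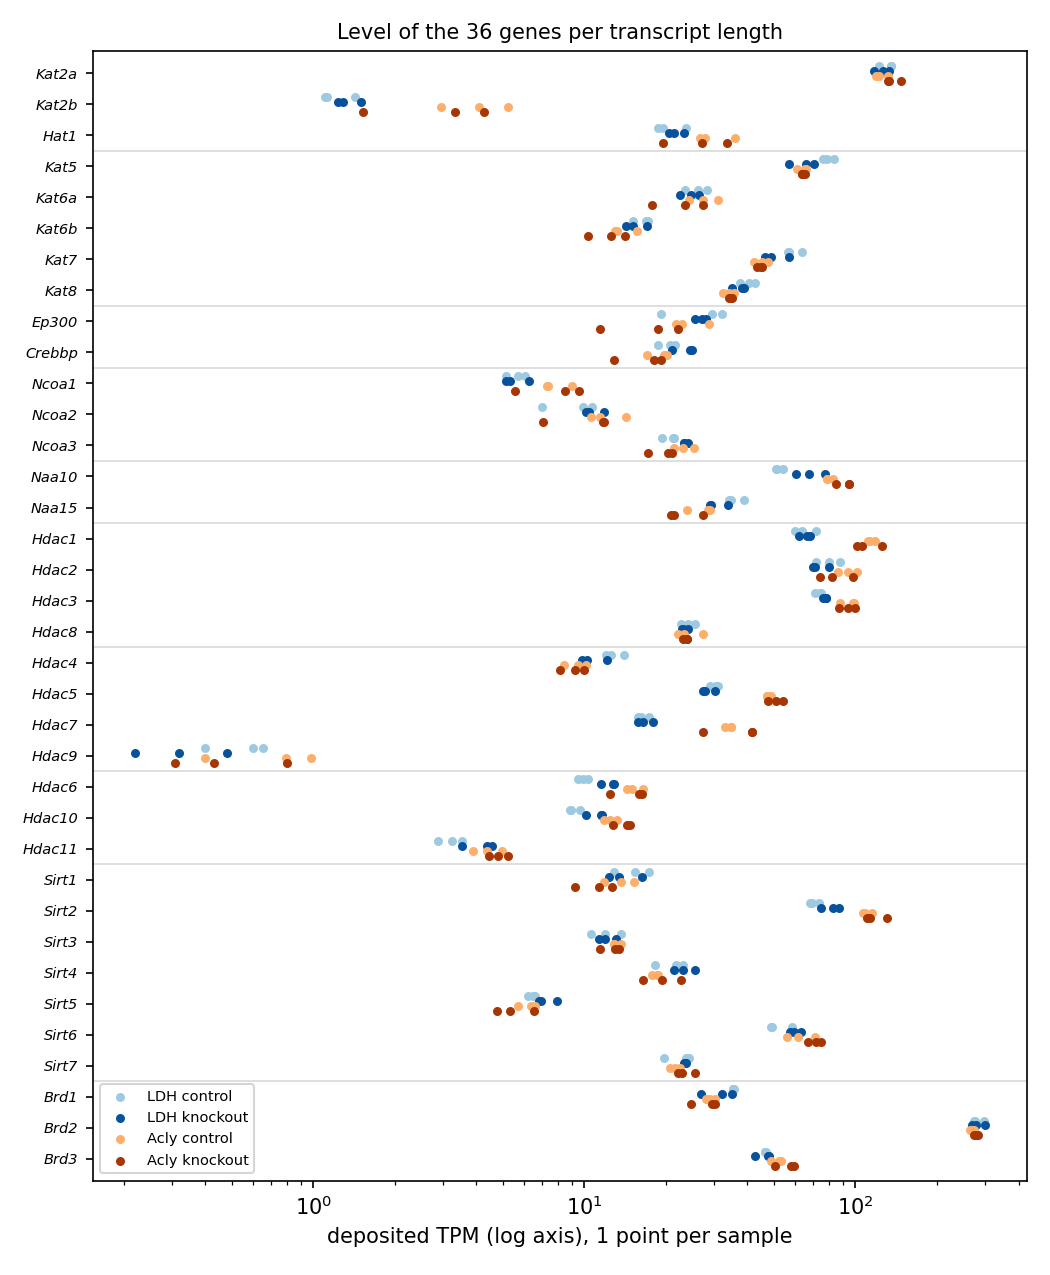
Deposited TPM of the 36 genes on a log axis, 1 point per sample, coloured by group and ordered by enzyme class from top to bottom (grey lines separate the classes). Brd2 is highest at 266 to 301 TPM, and Kat2b and Hdac9 are lowest; points of a knockout mostly lie among those of its own control, whereas several genes such as Hdac7 and Kat2b differ between the LDH and Acly sets.

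In the LDH comparison, none of the 36 genes passed an adjusted p of 0.05 (edgeR quasi-likelihood test with Benjamini-Hochberg adjustment over 13321 genes), against 2.49% of all genes tested. At an unadjusted p under 0.05 there were 10 of 36 (27.8%), where 19.6% of all genes met that mark: Naa10, Hdac6, Hdac10, Crebbp, Sirt2 and Sirt6 with higher and Kat5, Kat7, Naa15 and Hdac4 with lower values in the knockout. DESeq2 called 1 of the 36, Naa10, and 901 genes in all. Fold changes were small: the median size, regardless of sign, was 0.126 on the log2 scale for the 36 genes and 0.147 for all genes tested. For 28 of the 36 the 95% interval of the log2 fold change lay wholly within 0.5 of zero. The 8 for which it did not were Kat2b, Ncoa2, Naa10, Hdac9, Hdac6, Hdac10, Hdac11 and Sirt5. The samples separated for 8 genes with every knockout above every control (11.9% of all genes tested did so) and for 3 with every knockout below every control (12.5% of all genes).

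**Figure D2:**
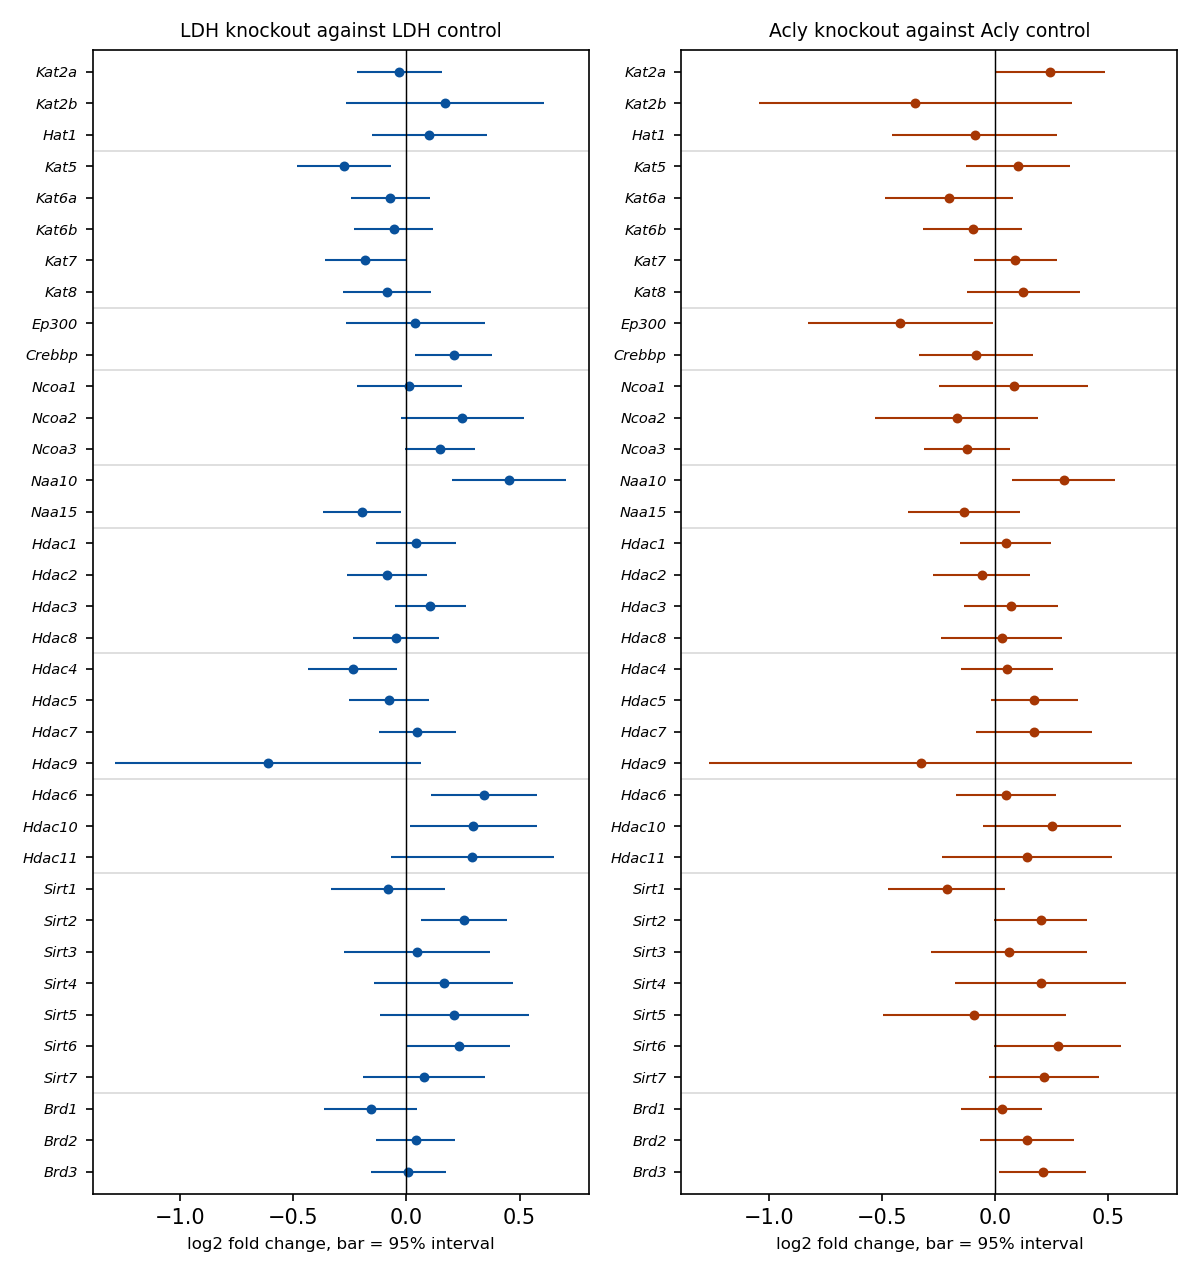
Log2 fold change of each of the 36 genes, knockout over control, in the LDH comparison (left) and the Acly comparison (right). Points are edgeR estimates from 3 against 3 samples and bars are 95% intervals; no gene passed an adjusted p of 0.05, Naa10 has the highest estimate in both panels (0.45 and 0.30), and Hdac9 has the widest interval.

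Naa10, the catalytic subunit of the NatA complex, which acetylates the N-termini of new proteins rather than histones, came closest to the threshold. It stood at 33.3, 39.8 and 29.3 CPM in the LDH knockouts and at 24.1, 25.5 and 25.3 in the controls. Every knockout was above every control, and the control with little Y-linked RNA, replicate 3, lay between the other two. The log2 fold change was 0.45 (SE 0.11), with a 95% interval from 0.20 to 0.71 and an adjusted p of 0.0676. The adjusted p was 0.0146 by DESeq2, 0.0382 with all 12 samples in the fit and 0.0166 without LDH knockout replicate 3, and it ranged from 0.0146 to 0.324 over 16 alternatives. Naa15, the subunit that anchors NatA to the ribosome, lay the other way, at 95.4, 97.5 and 108 CPM in knockouts and 110, 120 and 115 in controls. Its groups did not overlap either, and its log2 fold change was -0.20 (adjusted p 0.201). The values of these partner subunits in the knockout thus lay on opposite sides of the controls. Their transcript lengths, implied by count and FPKM, also differ, at 927 bases for Naa10 and 6025 for Naa15. Spearman's rho of the LDH fold changes with length was -0.26 over the 36 genes and -0.09 over all genes. The alternatives included removal of each library's trend over transcript length, and the part of length in this contrast was not tested further.

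Among the histone acetyltransferases, all 5 of the MYST family had a log2 fold change below zero in the LDH comparison, with a median of -0.09. Kat5 (Tip60), the catalytic subunit of the NuA4 complex, had 67.5, 60.0 and 71.2 CPM in knockouts and 75.7, 76.7 and 88.3 in controls. Every knockout was lower than every control, with a log2 fold change of -0.28 (SE 0.09, adjusted p 0.145). Kat7 (Hbo1), which works with the scaffold protein Brd1, had 96.8, 93.7 and 108 CPM in knockouts against 107, 117 and 115 in controls. Knockout replicate 3 reached into the control range, and the log2 fold change was -0.18 (adjusted p 0.248). Kat8, Kat6b and Kat6a had log2 fold changes of -0.09, -0.06 and -0.07, and with the Y-linked sum as a covariate Kat6a was at 0.03. Brd1 itself was at -0.16. The GNAT enzymes Kat2a, Kat2b and Hat1, the last of which acetylates newly made histones, were at -0.03, 0.17 and 0.10, and their groups overlapped.

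Crebbp (CBP) and Ep300 (p300) are related acetyltransferases recruited by many transcription factors, and their values differed in how far the samples separated. Crebbp had 109, 95.8 and 107 CPM in LDH knockouts and 92.7, 88.3 and 89.0 in controls, with no overlap and a log2 fold change of 0.21 (SE 0.08, adjusted p 0.172). Ep300 had 123, 118 and 124 CPM in knockouts and 130, 137 and 89.4 in controls, so the knockouts fell inside a wide control range (log2 fold change 0.04, adjusted p 0.906). The low control was replicate 3, the one with little Y-linked RNA, and without it the log2 fold change of Ep300 was -0.13. With the Y-linked sum as a covariate, which sets the knockouts mainly against that control, it was 0.51, so its direction was not stable. Across genes, the deviations of that control also ran with transcript length (Spearman's rho -0.50 over the 36 genes and -0.32 over all genes), and Ep300 is the longest of the 36. An alternative also removed each library's trend over transcript length. The part of Y-linked RNA or of length in the Ep300 values was not tested further. The p160 coactivators, which bridge nuclear receptors to these enzymes, were at 0.01 for Ncoa1, 0.25 for Ncoa2 and 0.15 for Ncoa3. Of them, Ncoa3 had every knockout (80.9, 86.5 and 84.1 CPM) above every control (77.4, 74.5 and 75.1).

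Class I deacetylases, which apart from Hdac8 form the catalytic core of the NuRD, Sin3, CoREST and NCoR corepressor complexes, lay close to their controls in the LDH comparison. For Hdac3 every knockout (76.1 to 78.0 TPM) was nevertheless above every control (71.2 to 74.55 TPM). Hdac1, Hdac2, Hdac3 and Hdac8 had log2 fold changes of 0.04, -0.09, 0.10 and -0.05, and the 4 together summed to 242 ± 15.8 TPM in controls and 240 ± 5.76 in knockouts (SD, n = 3 each). Of class IIa, whose members carry signals between the cytoplasm and the nucleus, Hdac4 had 44.7, 43.8 and 51.7 CPM in knockouts and 53.0, 57.9 and 54.4 in controls. Every knockout was lower, knockout replicate 3 by the least, with a log2 fold change of -0.24 (SE 0.09, adjusted p 0.175). Hdac5 and Hdac7 were at -0.08 and 0.05. Hdac9 was at -0.61 with an interval from -1.29 to 0.07, and at its counts a difference of that size could not be shown.

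The class IIb enzymes and Hdac11, the only class IV enzyme, had log2 fold changes of 0.29 to 0.34 in the LDH comparison. Hdac6, a cytoplasmic deacetylase of tubulin, had 27.2, 28.2 and 23.6 CPM in knockouts and 20.5, 19.3 and 22.7 in controls. Every knockout was above every control, although knockout replicate 3 and control replicate 3 lay close together (log2 fold change 0.34, SE 0.11, adjusted p 0.116). Hdac10, a polyamine deacetylase, had 15.0, 15.2 and 12.8 CPM against 11.3, 10.9 and 12.9, where knockout replicate 3 again lay within the control range. Hdac11 had 5.26, 4.44 and 4.46 CPM against 4.07, 3.89 and 3.60, with no overlap. Summed over the 3 genes, the level was 27.6 ± 1.29 TPM in knockouts and 22.3 ± 0.633 TPM in controls.

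Of the 7 sirtuins, 6 had a log2 fold change above zero in the LDH comparison, with a median of 0.16. That count depended on the setting. With the Y-linked sum as a covariate 3 of 7 were above zero, in a fit that rests mainly on control replicate 3. Sirt1 had turned to 0.11 and Sirt3, Sirt4, Sirt6 and Sirt7 to -0.03, -0.08, -0.01 and -0.13. Sirt2, the mainly cytoplasmic sirtuin and the most abundant of them, had 78.8, 85.1 and 70.2 CPM in knockouts and 63.7, 65.9 and 66.9 in controls. All knockouts were above all controls, with a log2 fold change of 0.25 (SE 0.09, adjusted p 0.145). Sirt6, a chromatin-bound sirtuin, had 48.0, 45.2 and 44.6 CPM against 37.1, 35.2 and 45.2, with control replicate 3 inside the knockout range (log2 fold change 0.23, adjusted p 0.249). The mitochondrial members Sirt3, Sirt4 and Sirt5 were at 0.05, 0.16 and 0.21, the nucleolar Sirt7 was at 0.08, and Sirt1, the nuclear sirtuin, was at -0.08. For Sirt5 every knockout (6.78 to 7.92 TPM) was above every control (6.18 to 6.57 TPM). The BET proteins Brd2 and Brd3 were at 0.04 and 0.01.

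LDH knockout replicate 3 bore on several of these values. Without it 3 of the 36 genes passed the adjusted threshold, namely Naa10 at a log2 fold change of 0.55 (adjusted p 0.0166), Hdac6 at 0.41 (0.0493) and Sirt2 at 0.32 (0.0443). The number of all genes called went from 332 of 13321 tested to 1068, so calls rose for genes in general and not for the 36 alone. With the Y-linked sum as a covariate 3 genes in all and none of the 36 were called, and 8 of the 36 estimates changed sign, 5 of them sirtuins. That fit rests mainly on control replicate 3, the only LDH control with little Y-linked RNA. Naa10 was then at 0.43, Sirt2 at 0.22 and Hdac6 at 0.19. Of the 36 genes, Naa10, Hdac6 and Hdac8 lie on the X chromosome. Markers of other cell types moved with the same groups: all 9 tested fat cell markers had positive log2 fold changes and 7 were called, with a summed level of 41.8 to 56.9 CPM in controls and 86.6 to 155 in knockouts. The osteoblast marker sum was 206 to 334 CPM in controls and 124 to 157 in knockouts. The part of cell composition in the values of the 36 genes was not tested.

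**Figure D3:**
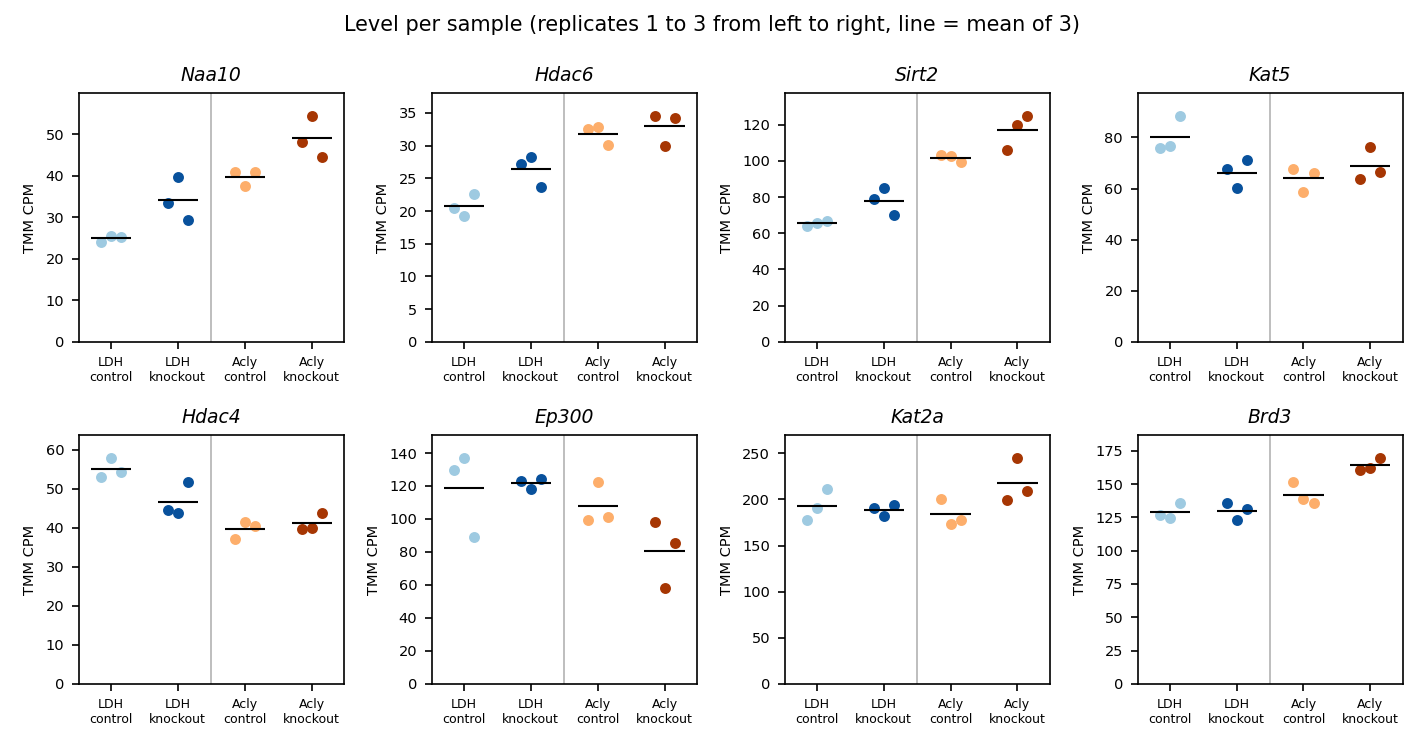
TMM-scaled CPM of 8 of the 36 genes in each sample, on linear axes starting at 0; points are replicates 1 to 3 from left to right in each group, black lines are group means, and the LDH and Acly sets were scaled separately. In Naa10 all knockout points lie above their own controls in both sets, Kat5 and Hdac4 points of LDH knockouts lie below all those of LDH controls, and Ep300 is lowest in Acly knockout replicate 2 (58.0 CPM).

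In the Acly comparison, again none of the 36 genes passed an adjusted p of 0.05, against 0.136% of the 13973 genes tested, which is 19 genes. DESeq2 called none of the 36 and 247 genes in all. At an unadjusted p under 0.05 there were 4 of 36 (11.1%), Kat2a, Naa10 and Brd3 with higher and Ep300 with lower values in the knockout, where 15.8% of all genes met that mark. Without knockout replicate 2 edgeR called 132 genes, none of them among the 36. The median size of the log2 fold change was 0.140 for the 36 genes and 0.172 for all genes tested. For 27 of the 36 the 95% interval lay within 0.5 of zero. Every knockout was above every control for 6 genes (10.7% of all genes tested) and below every control for 1 gene (11.3% of all genes). The 6 were Kat7, Naa10, Hdac5, Sirt2, Sirt7 and Brd3, and the 1 was Ep300.

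Ep300 had the largest estimate of the acetyltransferases in size, at a log2 fold change of -0.42 (SE 0.18, 95% interval -0.83 to -0.01, adjusted p 0.310). It stood at 98.2, 58.0 and 85.5 CPM in Acly knockouts and at 99.4, 123 and 101 in controls. Knockout replicate 1 lay just under the lowest control, and replicate 2 was far below all the rest. Without replicate 2 the log2 fold change was -0.23 (adjusted p 0.364). Crebbp had 81.2, 68.6 and 86.2 CPM against 88.6, 85.7 and 75.9, so its groups overlapped (log2 fold change -0.08, and 0.01 without replicate 2).

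Naa10 had 48.1, 54.4 and 44.5 CPM in Acly knockouts and 40.8, 37.5 and 40.8 in controls. As in the LDH set, every knockout was above every control, and the log2 fold change was 0.30 (SE 0.10, 95% interval 0.08 to 0.53, adjusted p 0.259). Naa15 was at -0.14, with overlapping groups. Kat2a had 199, 245 and 209 CPM in knockouts and 200, 173 and 178 in controls, where knockout replicate 2 was the highest and replicate 1 lay within the control range (log2 fold change 0.24, adjusted p 0.315). The other GNAT members, Kat2b and Hat1, were at -0.35 and -0.09. Without replicate 2 the 4 values for Naa10, Kat2a, Kat2b and Hat1 were 0.22, 0.15, -0.07 and 0.05.

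The MYST family, all below zero in the LDH comparison, was split in the Acly comparison. Kat5, Kat7 and Kat8 were at 0.10, 0.09 and 0.12, and Kat6a and Kat6b at -0.20 and -0.10. The p160 coactivators Ncoa1, Ncoa2 and Ncoa3 were at 0.08, -0.17 and -0.13. None of these had an unadjusted p under 0.05. Without replicate 2 they were at 0.03, 0.06 and 0.05 for Kat5, Kat7 and Kat8, at -0.09 and -0.04 for Kat6a and Kat6b, and at 0.23, -0.003 and -0.10 for Ncoa1, Ncoa2 and Ncoa3.

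Class I deacetylases again lay near zero, at 0.05 for Hdac1, -0.06 for Hdac2, 0.07 for Hdac3 and 0.03 for Hdac8. Of class IIa, Hdac5 had 103, 111 and 111 CPM in Acly knockouts and 101, 91.9 and 95.1 in controls, without overlap (log2 fold change 0.17, adjusted p 0.349). Hdac4, Hdac7 and Hdac9 were at 0.05, 0.17 and -0.33, the last with an interval from -1.26 to 0.61. Hdac6, Hdac10 and Hdac11 were at 0.05, 0.25 and 0.14. Sirt2 had 106, 120 and 125 CPM against 103, 103 and 99.1, and every knockout was above every control (log2 fold change 0.20, adjusted p 0.325). Sirt7 and Sirt6 were at 0.22 and 0.28, and Sirt1 was at -0.21. The mitochondrial Sirt3, Sirt4 and Sirt5 were at 0.06, 0.20 and -0.09. Without replicate 2 several of these moved: Hdac7 was at 0.29, Hdac9 at -0.10, Hdac6 at 0.11, Hdac10 at 0.17, Hdac11 at 0.06, Hdac2 at -0.03, Sirt6 at 0.18 and Sirt4 at 0.02, and Hdac8 and Sirt3 changed sign, to -0.01 and -0.06.

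Among the readers, Brd3 had 160, 162 and 169 CPM in Acly knockouts and 151, 139 and 135 in controls. The groups did not overlap, and its log2 fold change was 0.21 (SE 0.08, adjusted p 0.297). It kept nearly the same value without replicate 2, at 0.22. Brd2 and Brd1 were at 0.14 and 0.03, and at 0.10 and 0.06 without replicate 2.

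The values of Acly knockout replicate 2 ran with transcript length, as did those of some other libraries to a lesser degree. The length implied by each gene's count and FPKM was set against the library's deviation from the mean of the other samples of its group or, for a comparison, against the log2 fold change. In this library Spearman's rho across genes was -0.72 for the 36 genes and -0.38 for 14251 genes, and in the other 11 libraries it lay between -0.50 and 0.60 for the 36 and between -0.32 (LDH control replicate 3) and 0.31 (Acly control replicate 2) for all genes. These are descriptions across genes that share one library, not tests. For the Acly fold changes rho was -0.54 over the 36 genes and -0.31 over 13973 genes, and without replicate 2 it was -0.22 and -0.15. In the LDH comparison it was -0.26 and -0.09. Ep300 and Crebbp, with implied lengths of 8333 and 8309 bases, are the longest of the 36, and Naa10, at 927 bases, is the shortest. An alternative chosen after seeing the data removed each library's length trend, and it was run for both knockout comparisons. In the Acly comparison Ep300 was then at -0.26, Naa10 at 0.19, Naa15 at -0.002, Kat2a at 0.25, Brd3 at 0.32 and Hdac4 at 0.23. Crebbp, Kat6b, Ncoa3, Hdac8 and Sirt3 changed sign, and no gene of the 36 was called. Replicate 2 also had the lowest sum of perichondrial fibroblast markers, 1092 CPM against 2687 and 2698 in the other knockouts and 3090 to 3717 in controls. The part of either feature in the values was not tested further.

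**Figure D4:**
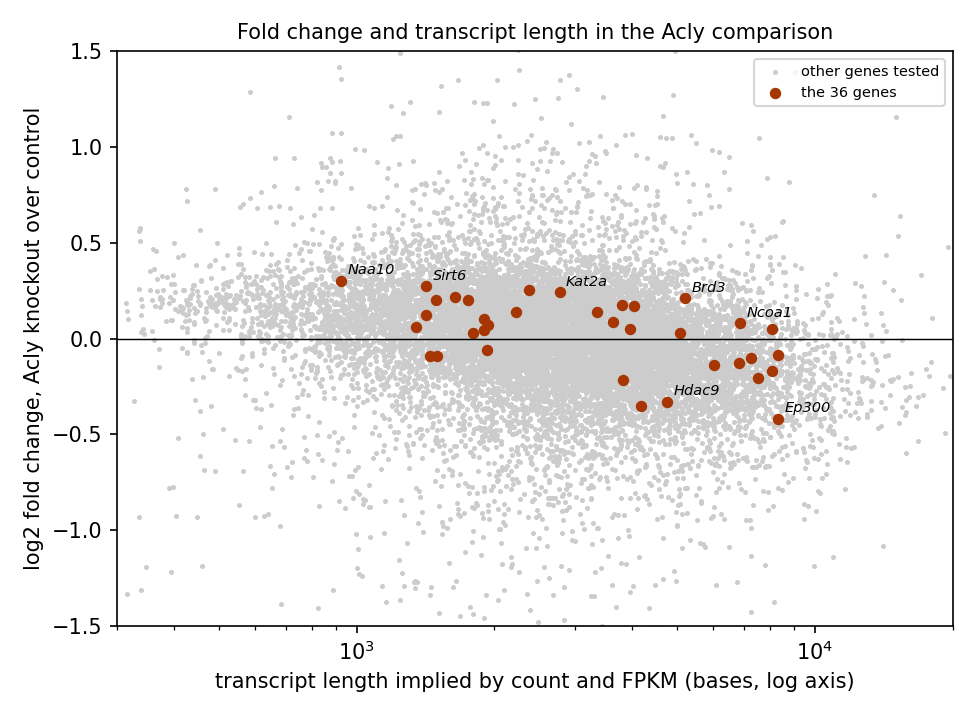
Log2 fold change in the Acly comparison against the transcript length implied by count and FPKM (log axis), for the 36 genes (brown) and the other genes tested (grey). The 36 slope downward, from Naa10 at 0.30 to Ep300 at -0.42, with a Spearman's rho of -0.54; 71 of 13973 genes fall outside the drawn axes, none of them among the 36.

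The difference between the knockout effects was tested directly in a fit of all 12 samples, in which deleted gene and age coincide. None of the 36 passed an adjusted p of 0.05, against 0.161% of 14251 genes, and DESeq2 called none. An unadjusted p under 0.05 was met by 7 of 36, compared with 13.0% of all genes. The LDH effect minus the Acly effect was 0.29 for Ncoa3 (SE 0.10, adjusted p 0.273), 0.31 for Crebbp and 0.31 for Hdac6. It was -0.36 for Kat5 (SE 0.13, adjusted p 0.296), -0.25 for Kat7, -0.27 for Hdac4 and -0.23 for Hdac5. For Naa10 it was 0.17 with a 95% interval from -0.15 to 0.49. The knockout comparisons share no samples. Their estimates had the same sign for 21 of the 36 genes, or 58.3%, and for 57.4% of 13140 genes tested in both, and the correlation across the 36 genes was 0.29 by Spearman's rho.

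Differences among these genes were larger between the sets, as they were for genes in general. In a principal component analysis of the 36 genes, the first component held 66.3% of the variance and placed all LDH samples between 0.639 and 1.51 and all Acly samples between -1.48 and -0.966. All genes separated the sets in the same way, with 77.0% of the variance on the first component, LDH samples between 38.5 and 49.0 and Acly samples between -51.3 and -24.4. Comparing Acly controls with LDH controls, 19 of the 36 genes (52.8%) passed an adjusted p of 0.05, where 55.0% of 14251 genes did, so the share was near the background. Of these, 9 were higher in Acly controls (29.4% of all genes) and 10 were lower (25.7%). E18.5 against P5, the mouse line and any batch coincide here and cannot be told apart.

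Kat2b was the gene with the largest difference, at 6.43, 10.5 and 8.66 CPM in Acly controls and 3.28, 2.58 and 2.76 in LDH controls, all 12 samples being scaled together. Every Acly control was higher, with a log2 fold change of 1.56 (SE 0.29, adjusted p 0.000462). Hdac7, the class IIa deacetylase known for its role in blood vessels and cartilage, had 71.7, 68.2 and 67.5 CPM against 36.7, 38.0 and 37.7 (log2 fold change 0.88). Hdac1 had 110, 104 and 113 CPM against 67.2, 73.6 and 66.9 (0.65). Its close paralog Hdac2 was at 0.07, with overlapping groups. Naa10, Hdac5, Sirt2, Hdac6, Hat1 and Hdac3 were also higher in Acly controls, at 0.52, 0.48, 0.48, 0.46, 0.38 and 0.21.

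Hdac4 had the largest difference in the other direction. It stood at 35.5, 39.4 and 38.5 CPM in Acly controls and 56.3, 61.4 and 57.2 in LDH controls, with a log2 fold change of -0.63 (SE 0.09). Class IIa was therefore divided, with Hdac7 and Hdac5 higher and Hdac4 lower in the E18.5 cells. Naa15 was at -0.57, with 74.9, 84.1 and 87.1 CPM against 117, 127 and 121, and so lay opposite to its partner Naa10 here as well. Spearman's rho of these fold changes with implied transcript length was -0.16 over the 36 genes and 0.06 over all genes, and the part of length was not tested. Of the MYST family, 4 of 5 were lower in Acly controls: Kat7 at -0.55, Kat5 at -0.48, Kat8 at -0.41 and Kat6b at -0.40. Brd1, the scaffold of Kat7, was at -0.46, and Sirt1, Crebbp and Brd2 were at -0.32, -0.27 and -0.20.

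Of the 15 alternatives run, 6 leave out a knockout library and so change mainly the estimate of the spread, with fold changes nearly the same. In all of the other 9, 13 of the 19 calls held: Kat2b, Hdac7, Hdac1, Naa10, Hdac5, Sirt2 and Hdac6 as higher, and Hdac4, Naa15, Kat7, Kat5, Brd1 and Kat8 as lower. Kat6b held in 8 of the 9, Hat1 and Hdac3 in 5, and Crebbp, Sirt1 and Brd2 in 4. Without scaling factors 20 of the 36 were called, 14 higher and 6 lower, and the share of higher genes among all calls went from 53.3% to 72.4%, with the median of all genes at 0.19. The libraries also differed in other cell types: perichondrial fibroblast marker sums were 3090 to 3717 CPM in Acly controls and 542 to 989 in LDH controls. Osteoblast sums were 1195 to 1468 against 206 to 334, and muscle sums 373 to 486 against 36.04 to 63.4. Endothelial sums were 108 to 127 against 17.3 to 21.3. Cell cycle gene sums also differed, at 779 to 863 against 292 to 357. Their part in the differences of the 36 genes was not tested.

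**Figure D5:**
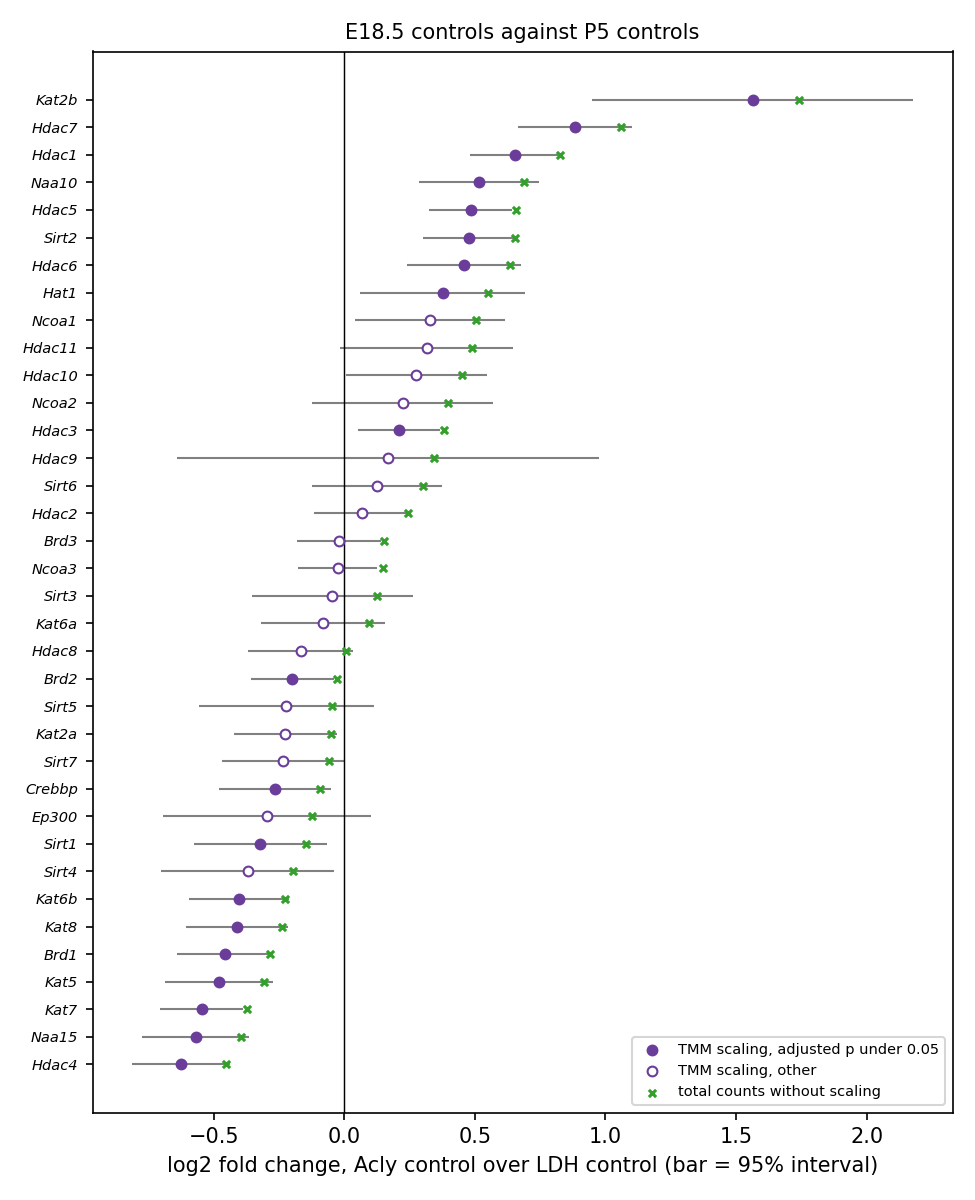
Log2 fold change of the 36 genes in Acly controls (E18.5) over LDH controls (P5), 3 samples each, sorted by value; filled circles passed an adjusted p of 0.05 with TMM scaling, open circles did not, bars are 95% intervals, and crosses give the value without scaling factors. Kat2b (1.56) and Hdac7 (0.88) lie at the top and Hdac4 (-0.63) at the bottom, and the crosses lie to the right of the circles throughout.

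The partners and suppliers of these enzymes were described from 4 lists: 55 partners of acetyltransferases, 35 partners of deacetylases, 32 other bromodomain or YEATS readers and 16 genes of acetyl-CoA and NAD supply. In neither knockout comparison did any of them pass the adjusted threshold in edgeR (136 tested in LDH and 138 in Acly). At an unadjusted p under 0.05 there were 14 in LDH (10.3%, beside 19.6% of all genes) and 22 in Acly (15.9%, beside 15.8%). DESeq2 called 2 in each, Mbd2 and Acss2 in LDH and Mbd3 and Phip in Acly. The median log2 fold change of the lists in LDH was 0.02, 0.03, 0.03 and -0.01 in that order, beside 0.01 for all genes, and in Acly it was 0.00, 0.00, -0.13 and 0.01, beside -0.002 for all genes.

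In the LDH comparison the gene of these lists nearest the threshold was Acss2, which makes acetyl-CoA from acetate, at a log2 fold change of 0.84 (SE 0.20, adjusted p 0.0573, and 0.0229 by DESeq2). Its mean level was low, at 4.21 CPM in LDH knockouts and 2.36 in LDH controls with all 12 samples scaled together. Fat cell markers were higher in the same knockouts, and the part of cell composition in the values of these lists was not tested. Acat2, an acetyl-CoA acetyltransferase, was at 0.40. Eny2, a subunit of the SAGA deubiquitinating module, was at -0.30, Jade2, a partner of Kat7, was at 0.22, and Mbd2 and Rcor1, of the NuRD and CoREST complexes, were at -0.29 and -0.20. The readers with the lowest p were Cecr2 at -0.71 and Atad2 at 0.29. In the Acly comparison Mbd3 and Mta1, both of NuRD, were at 0.41 and 0.31, and Jade1 and Ruvbl2 were at -0.27 and 0.30. The bromodomain proteins Phip and Brwd3 were at -0.59 and -0.73. Without Acly knockout replicate 2 these were -0.48 and -0.52, and with the length trend removed -0.38 and -0.55. Slc33a1, the acetyl-CoA transporter of the endoplasmic reticulum, was at -0.29, and Pdha1, a subunit of pyruvate dehydrogenase, was at -0.23. Acss2 in that comparison was at 0.25 (adjusted p 0.497).

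Reads of some members may be shared with a neighbour, since how reads were assigned is not given in the sources used here. In the RefSeq annotation Kat8 overlaps Prss8, Hdac7 overlaps Slc48a1, Sirt3 overlaps Ric8a and Brd2 overlaps H2-DMa, and the values of these 4 genes are uncertain to that extent.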

How the data were processed

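The authors deposited 1 table with an expected count, an FPKM value and a TPM value for each gene in each of 12 samples. Per the submitters' processing notes, HISAT2 2.0.4 and the mm9 build were used; the counting program is not given in the sources used here. Expected counts (3 counts correspond to 0.107 to 0.114 CPM per library, counting error only) were rounded and tested in R 4.3.3 with edgeR 4.0.16: TMM scaling, filterByExpr, two-sided quasi-likelihood tests, Benjamini-Hochberg adjustment over all genes tested, threshold 0.05. Each knockout comparison used its 6 samples. The difference of effects and the controls were fitted on all 12. Intervals use the t quantile of the fit. DESeq2 1.42.0, limma 3.58.1 on log2(FPKM + 0.1), other scalings, filters and covariates were alternatives. TPM was used for levels only. Of 17922 identifiers, 17814 matched RefSeq (GRCm38.p6, names only); 28 symbols were restored. The members and gene lists were chosen with earlier results of these data known. Named are all members, the targeted genes and, in each list with no call, the 2 genes of lowest p per comparison. Scripts were tested on simulated data.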

Additional observations from a re-analysis of the deposited data

How the results depend on the processing

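Of the 36 genes, in the LDH comparison 1 was called by DESeq2, 1 with all 12 samples in the fit, and 0 to 3 when 1 library was left out, and in the Acly comparison and for the difference of effects none was called under any alternative run. Counts over all genes moved more. In LDH they were 332 in edgeR, 901 in DESeq2, 3 with the Y-linked covariate and 95 to 1068 when 1 library was left out. In Acly they were 19, and 11 without scaling factors, 247 in DESeq2, 32 without a filter on low counts, 31 with all 12 samples, 6 with the Y-linked covariate and 0 to 132 when 1 library was left out, the highest without knockout replicate 2. For the difference of effects they were 23, and 213 in DESeq2 and 5 to 143 when 1 library was left out, the highest without LDH knockout replicate 3. The Acly gene itself stood at -1.41 in the Acly comparison (adjusted p 0.0313), and at -1.45 without scaling factors (0.0564), -1.39 with the Y-linked covariate (0.0692) and -1.54 to -1.21 when 1 library was left out, with adjusted p up to 0.233. The cause of these movements was not tested. Replicate numbers gave no steady sign of pairing: correlations of same-numbered deviations were 0.08, -0.18 and 0.00 in LDH and -0.15, -0.33 and -0.31 in Acly. With 3 samples per group these values cannot exclude a pairing. With the number as a block, 362 genes in LDH, 8 in Acly and 5 for the difference were called, and none of the 36 in any of them. Depth limits Hdac9, Kat2b, Sirt5 and Hdac11, whose counts per library were lowest.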

Other observations

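Between the control groups, the calls among partners of these enzymes numbered 22 of 55 partners of acetyltransferases (6 higher and 16 lower in Acly controls), 18 of 35 partners of deacetylases (7 and 11), 17 of 32 other readers (9 and 8) and 9 of 16 supply genes (4 and 5), beside 55.0% of all genes tested. Kat2a lay at the threshold, at -0.23 with an adjusted p of 0.05002 that was not counted as passing. Summed TPM of the class I deacetylases was 328 ± 7.94 in Acly controls and 242 ± 15.8 in LDH controls, and that of the MYST acetyltransferases was 185 ± 4.95 and 221 ± 8.66 (SD, n = 3 each). In the LDH knockouts the MYST sum was 193 ± 16.7 TPM.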
